A study of Mus musculus with 9 samples.

Results

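The 10 genes described here are core parts or close outputs of the circadian clock: Arntl (also called Bmal1), Clock, Per1, Per2, Per3, Cry1, Cry2, Dbp, Tef and Csnk1e. They were chosen by name, and all 10 had a row among the 26683 genes of the count table and passed the filter on low counts, as did 12738 genes in all. The RNA came from regulatory T cells (Treg cells) of the spleen, which were isolated by CD4 and by a yellow fluorescent reporter of Foxp3, and each mouse gave 1 library. The 4 KO mice were EsrrgNf/f.Foxp3YFP-Cre and the 5 WT mice were B6N.Foxp3YFP-Cre, all of them labelled as females of 2 to 3 months. Cre is thus expressed from Foxp3 in both groups, and the floxed Esrrg gene, which encodes estrogen-related receptor gamma, is the labelled difference. The bracketed library names begin with Err in KO titles and with B6-N in WT titles, so genotype and any difference of colony cannot be told apart. The labels do not give the time of day at which spleens were taken.

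In mouse cells the proteins of Arntl and Clock bind together to E-boxes and switch on the Per and Cry genes, whose proteins return to the nucleus and block that activity. Dbp and Tef encode transcription factors of the PAR bZIP family that bind D-boxes in further clock-controlled promoters, and casein kinase 1 epsilon, the product of Csnk1e, phosphorylates PER proteins and marks them for breakdown. In tissues with a running clock, which include the spleen and its lymphocytes, Arntl RNA is high when Dbp and Per RNA is low, and Dbp has among the widest daily swings of all.

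The elements named above can be seen in some of these promoters. The 250 bases before the RefSeq transcription start (GRCm38.p6) are printed for Per3, Cry1 and the first listed promoters of Per1 and Tef, which hold an exact E-box or D-box, and for Dbp, which showed the largest difference between KO and WT among the 10 genes. They read 5′ to 3′ on the strand of the gene, and capitals mark the E-box CACGTG or the D-box TTATGTAA. Per3 lies at chr4:151044666-151044915 on the minus strand, Per1 at chr11:69098699-69098948 on the plus strand, Cry1 at chr10:85185055-85185304 on the minus strand, Tef at chr15:81802423-81802672 on the plus strand and Dbp at chr7:45704997-45705246 on the plus strand.
Per3: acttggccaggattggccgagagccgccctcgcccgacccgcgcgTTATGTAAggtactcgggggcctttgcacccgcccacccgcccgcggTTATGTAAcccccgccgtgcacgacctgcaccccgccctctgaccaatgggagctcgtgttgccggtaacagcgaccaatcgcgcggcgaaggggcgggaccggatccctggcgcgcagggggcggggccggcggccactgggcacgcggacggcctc
Per1: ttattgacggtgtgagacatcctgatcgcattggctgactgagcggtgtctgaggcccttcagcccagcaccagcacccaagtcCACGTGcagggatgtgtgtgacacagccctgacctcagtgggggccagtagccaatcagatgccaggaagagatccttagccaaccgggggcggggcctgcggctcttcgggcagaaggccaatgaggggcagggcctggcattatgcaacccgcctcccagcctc
Cry1: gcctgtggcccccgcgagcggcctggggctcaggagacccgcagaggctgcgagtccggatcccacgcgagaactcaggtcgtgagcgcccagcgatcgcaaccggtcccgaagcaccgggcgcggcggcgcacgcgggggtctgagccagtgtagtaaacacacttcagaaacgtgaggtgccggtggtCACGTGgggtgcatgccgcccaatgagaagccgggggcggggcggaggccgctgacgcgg
Tef: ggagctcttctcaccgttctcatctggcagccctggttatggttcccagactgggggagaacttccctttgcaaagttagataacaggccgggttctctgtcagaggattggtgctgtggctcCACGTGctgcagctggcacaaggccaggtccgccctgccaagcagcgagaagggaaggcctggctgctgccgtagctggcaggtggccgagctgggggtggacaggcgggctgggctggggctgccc
Dbp: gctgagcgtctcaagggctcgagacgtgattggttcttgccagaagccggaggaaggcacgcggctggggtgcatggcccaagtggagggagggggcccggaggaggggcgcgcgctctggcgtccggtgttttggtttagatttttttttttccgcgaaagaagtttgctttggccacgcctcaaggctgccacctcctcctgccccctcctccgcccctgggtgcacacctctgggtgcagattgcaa

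Windows of 300 bases, from 250 before to 50 after each start, were searched on both strands for these spellings. The Per3 window held TTATGTAA at positions -205 and -158, counted from the start. At least 2 copies were found in 7 of 32851 windows over all genes (0.0213%), and 0.938% held any copy. The first of 2 Per1 windows held CACGTG at -166, the Cry1 window at -60, and the windows of the 2 Tef promoters at -127 and -138. Over all genes, 7.15% of windows held that E-box. AGGTCA, the core of the element that ROR and REV-ERB receptors bind, was found at 32 in the second Arntl window, and its reverse complement TGACCT at -137 in the first Per1 window and at -119 in the third Clock window. It was present in 16.3% of all windows. Dbp, Cry2 and Csnk1e had none of these spellings in their windows, nor TTACGTAA, the other D-box spelling searched (0.119% of windows). Per2 was not searched.

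The libraries had 15269014 to 17425634 counts. Esrrg had 0 counts in each of the 4 KO and 5 WT libraries, and 3 counts over all of them would equal 0.0206 CPM (the count scaled to library size), so the deletion could not be checked. The library labelled KO 4, from a mouse labelled female, held 27 counts of Xist against 27355 to 35693 in the other libraries. Treg markers (7 genes with Foxp3, Il2ra and Ctla4) summed to 4340 to 4673 CPM in KO and 4382 to 4633 CPM in WT. The 6 B and plasma cell markers summed to 33.6 to 486 CPM in KO, with 142 in KO 1 and 486 in KO 4, and to 16.4 to 70.8 CPM in WT. Jchain made up most of these sums, with 133 CPM in KO 1 and 461 CPM in KO 4. Cd79a had 2.17 CPM in KO 1 and 4.35 CPM in KO 4, against 0.877 to 2.18 CPM in WT. The 4 myeloid markers summed to 14.7 to 87.4 CPM in KO and 9.88 to 48.0 CPM in WT. No gene of these lists was at 0 in the whole table, and Cd8a, a marker of CD8 T cells, had 4 to 10 counts per library. Calls are also given without KO 1 and KO 4.

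Of the 10 clock genes, Dbp and Csnk1e were lower in KO than in WT, and the remaining 8 did not pass the test. The test was edgeR's quasi-likelihood test on the counts, with Benjamini-Hochberg adjustment over the 12738 genes and a threshold of 0.05. By it 3.28% of genes were called, 418 in all (97 to 697 with 1 library left out), with 1.88% lower and 1.4% higher in KO. The log2 fold change, KO over WT throughout, was below 0 for 7 of the 10 genes and above 0 for 3, with a median of -0.16, against 48.5% of genes below 0 and a median of 0.0052 over all genes. KO and WT values did not overlap for 2 of the 10 genes, Dbp and Csnk1e, and for 9.07% of all genes (4.92% with KO lower, 4.15% with KO higher). In bulk RNA, fewer cells that express a gene and less of its RNA per cell cannot be told apart.

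**Figure D1:**
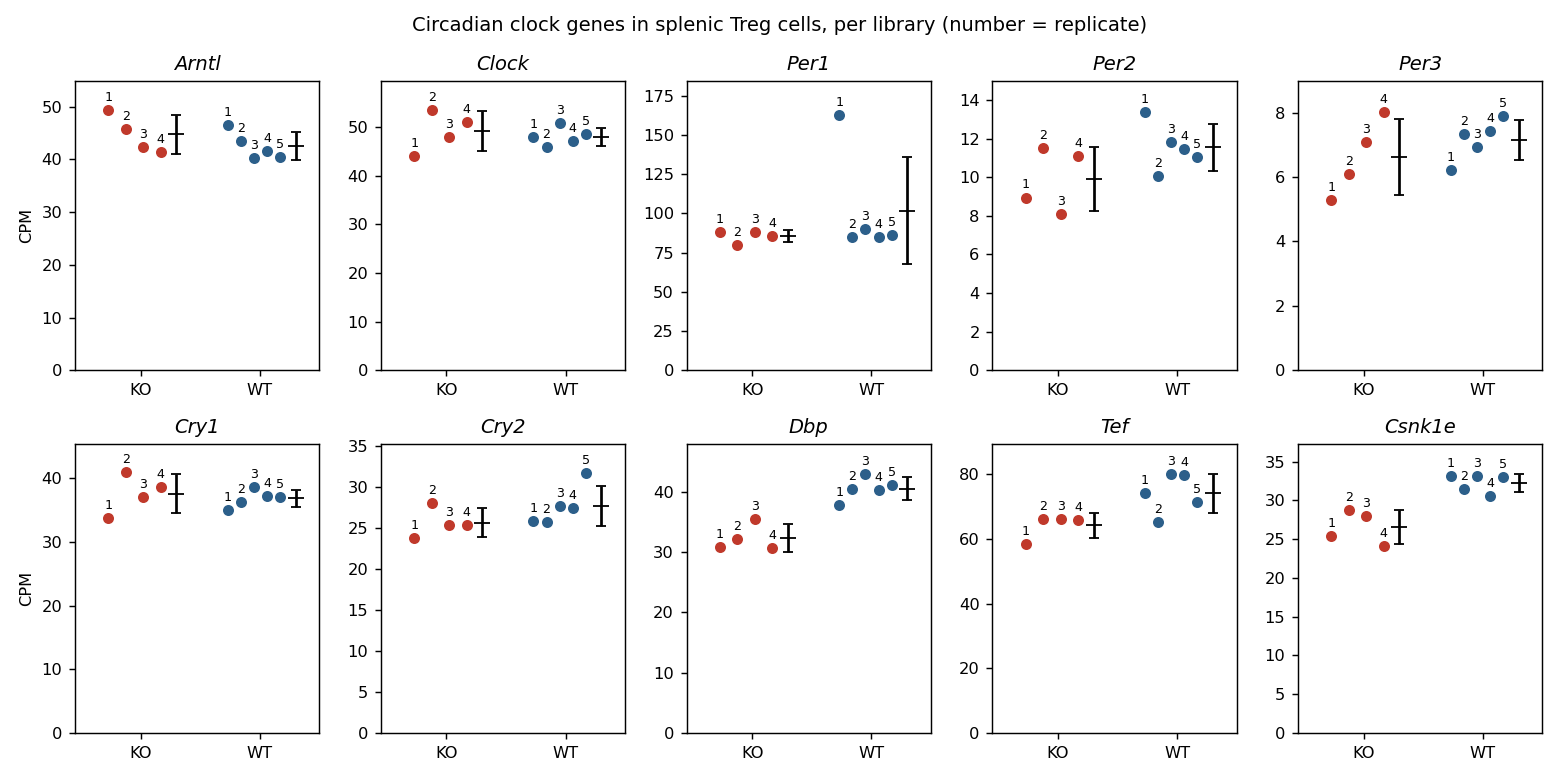
CPM of the 10 clock genes (y axis from 0) in each KO (red) and WT (blue) library, numbered by replicate, with the mean and SD of each group as a black bar (n = 4 KO, n = 5 WT). All KO points lie below all WT points for Dbp and Csnk1e, and WT 1 stands at 163 CPM for Per1, above the other libraries at 79.7 to 89.8 CPM.

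Neither activator gene passed the test. Arntl had 49.4, 45.8, 42.3 and 41.5 CPM in KO 1 to KO 4, against 46.6, 43.5, 40.2, 41.6 and 40.5 CPM in WT 1 to WT 5. KO 1 was the highest library and WT 3 the lowest, and the groups overlapped. The log2 fold change was 0.08 ± 0.06 (SE, 95% interval -0.06 to 0.21, edgeR adjusted p = 0.520). Clock had 43.9, 53.5, 47.9 and 51.0 CPM in KO and 47.9, 45.8, 50.7, 47.0 and 48.5 CPM in WT. KO 1 was here the lowest library and KO 2 the highest, and the log2 fold change was 0.03 ± 0.06 (-0.10 to 0.16, edgeR adjusted p = 0.792). Both genes varied little, with the highest library 1.23-fold over the lowest for Arntl and 1.22-fold for Clock.

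None of the repressor genes passed the test. Per1, which many stimuli induce directly besides the clock, had 88.3, 79.7, 88.4 and 85.7 CPM in KO, against 163, 84.7, 89.8, 84.9 and 86.2 CPM in WT. WT 1 alone stood apart, and the other 8 libraries lay within 79.7 to 89.8 CPM. The log2 fold change of -0.25 ± 0.22 (edgeR adjusted p = 0.541) came to -0.01 (edgeR adjusted p = 0.883) without WT 1. Per2, whose protein is a main repressor of the loop, had 8.95, 11.5, 8.07 and 11.1 CPM in KO and 13.4, 10.1, 11.8, 11.4 and 11.0 CPM in WT. KO 1 and KO 3 lay below every WT library and KO 2 and KO 4 lay among them, for a log2 fold change of -0.22 ± 0.12 (-0.49 to 0.04, edgeR adjusted p = 0.309).

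Per3, which in mice is not needed for the rhythm itself, was the faintest of the 10 genes. It had 5.30, 6.10, 7.09 and 8.03 CPM in KO and 6.22, 7.34, 6.94, 7.43 and 7.89 CPM in WT. Its lowest and its highest library were both KO, and the log2 fold change was -0.11 ± 0.13 (-0.40 to 0.17, edgeR adjusted p = 0.657). These levels rest on 93 to 131 counts, which alone give a spread of 0.14 on the log2 scale, against a measured spread within groups of 0.19. The Per3 gene (mm10, chr4:151003652-151044665, minus strand) overlaps Camta1 on the same strand, which had a log2 fold change of -0.14 ± 0.08 (edgeR adjusted p = 0.315). Cry1, with Cry2 the strongest repressor of Arntl and Clock protein activity, had 33.7, 41.0, 37.1 and 38.6 CPM in KO and 35.1, 36.3, 38.6, 37.2 and 37.0 CPM in WT. The groups overlapped (log2 fold change 0.03 ± 0.06, -0.10 to 0.16, edgeR adjusted p = 0.815), and without KO 2, the highest library, the value was -0.015. Cry2 had 23.8, 28.1, 25.4 and 25.4 CPM in KO and 25.9, 25.8, 27.7, 27.4 and 31.7 CPM in WT. WT 5 was highest, KO 1 lowest, and the log2 fold change was -0.11 ± 0.07 (-0.27 to 0.04, edgeR adjusted p = 0.390).

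Dbp, which encodes a D-box activator, was lower in KO. It had 30.8, 32.2, 35.5 and 30.6 CPM in KO, against 37.7, 40.4, 42.9, 40.3 and 41.1 CPM in WT, so the highest KO library lay under the lowest WT library. Means were 32.3 ± 2.27 CPM in KO (SD, n = 4) and 40.5 ± 1.87 CPM in WT (SD, n = 5), a log2 fold change of -0.33 ± 0.06 (-0.45 to -0.20, edgeR adjusted p = 0.0140). The call held when any 1 library other than KO 4 was left out, and without the library labelled KO 4 the change was -0.31 (edgeR adjusted p = 0.0507). Without both KO 1 and KO 4 it was -0.26 (edgeR adjusted p = 0.109). The Dbp gene (mm10, chr7:45705088-45710203, plus strand) overlaps Sphk2 on the opposite strand, and the sources used here do not say whether reads were counted by strand. Sphk2 had a log2 fold change of 0.09 ± 0.06 (edgeR adjusted p = 0.445).

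Tef, the second PAR bZIP gene, did not pass the test. It had 58.5, 66.3, 66.1 and 65.8 CPM in KO and 74.2, 65.3, 79.9, 79.6 and 71.4 CPM in WT. WT 2 lay among the KO libraries and the remaining WT libraries lay above all of them, for a log2 fold change of -0.21 ± 0.06 (-0.35 to -0.07, edgeR adjusted p = 0.0921). Without WT 2 the change was -0.25 and passed (edgeR adjusted p = 0.0287). Hlf, the last gene of this family, had 9 to 24 counts per library, a depth at which its log2 fold change of -0.03 ± 0.29 excludes little.

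Csnk1e, the kinase gene (mm10, chr15:79417856-79455566, minus strand), was lower in KO with 25.4, 28.8, 28.0 and 24.2 CPM, against 33.1, 31.5, 33.2, 30.6 and 33.0 CPM in WT. The groups did not overlap, with KO 4 lowest and WT 3 highest. Means were 26.6 ± 2.15 CPM in KO (SD, n = 4) and 32.3 ± 1.18 CPM in WT (SD, n = 5), a log2 fold change of -0.28 ± 0.06 (-0.41 to -0.15, edgeR adjusted p = 0.0277). This call was lost when WT 3, WT 4, WT 5, KO 1, KO 3 or KO 4 was left out, with edgeR adjusted p from 0.0505 (without KO 3) to 0.0867 (without KO 4). Without both KO 1 and KO 4 the change was -0.19 (edgeR adjusted p = 0.208). Its paralog Csnk1d, which acts on the same proteins, had 229 ± 8.45 CPM in KO and 239 ± 6.69 CPM in WT, a log2 fold change of -0.06 ± 0.04 (edgeR adjusted p = 0.378). KO 4 and KO 1 had the highest sums of B and plasma cell markers (486 and 142 CPM, mostly Jchain). These libraries had the 2 lowest values of Csnk1e (24.2 and 25.4 CPM) and of Dbp (30.6 and 30.8 CPM). The part of B and plasma cells in either difference was not tested.

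**Figure D2:**
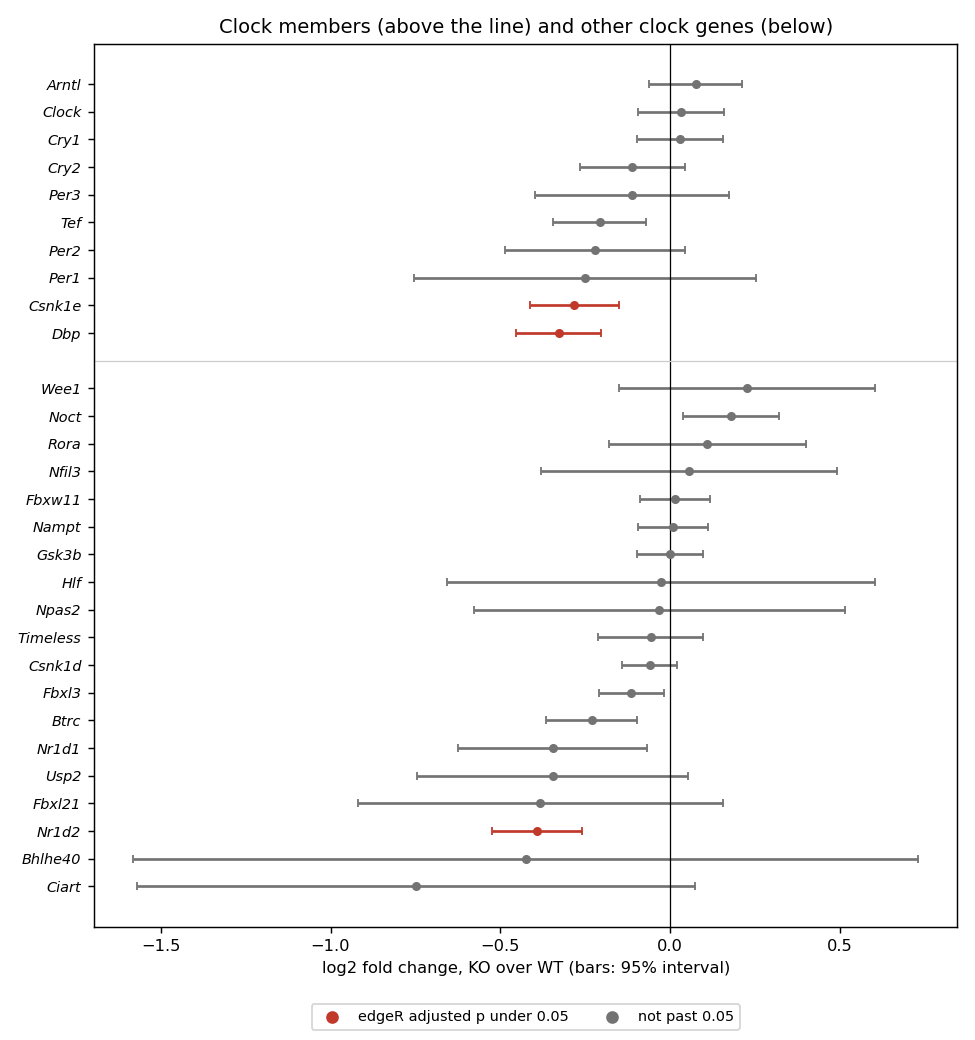
Log2 fold change, KO over WT, of the 10 clock genes (above the grey line) and of further clock genes (below it), with 95% intervals from edgeR; red marks an adjusted p under 0.05. Dbp at -0.33, Csnk1e at -0.28 and Nr1d2 at -0.39 are red, and Bhlhe40 and Ciart have the widest intervals.

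Of 23 other clock genes, listed with earlier results of these data known, 20 entered the test. Of these, 1 passed, Nr1d2, lower in KO, against 3.28% of all genes called and 1.88% called lower. Among the 20, 13 (65%) had a log2 fold change below 0 and 7 above, with a median of -0.04. Over all genes 48.5% were below 0, with a median of 0.0052. Arntl2, Rorb and Bhlhe41 had 16, 0 and 42 counts over all libraries and were not tested. Nr1d2 encodes REV-ERB beta, a receptor that represses Arntl and is itself an E-box target (mm10, chr14:18204054-18239127, minus strand). It had 42.2, 41.9, 39.5 and 41.6 CPM in KO, against 59.5, 49.5, 58.5, 51.0 and 52.4 CPM in WT. No KO library reached a WT library, the means were 41.3 ± 1.24 CPM in KO (SD, n = 4) and 54.2 ± 4.53 CPM in WT (SD, n = 5), and the log2 fold change was -0.39 ± 0.06 (edgeR adjusted p = 0.0077). It passed in 9 of 9 fits that left out 1 library, and without both KO 1 and KO 4 (-0.42, edgeR adjusted p = 0.0406).

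Nr1d1, which encodes the related receptor REV-ERB alpha, had 8.21, 5.65, 6.11 and 6.38 CPM in KO and 8.46, 9.76, 7.97, 7.43 and 8.27 CPM in WT. KO 1 lay among the WT libraries and the other KO libraries below them, for a log2 fold change of -0.35 ± 0.13 (edgeR adjusted p = 0.148). Nr1d1 overlaps Thra on the opposite strand, which had 22.5 ± 3.47 CPM in KO and 30.7 ± 1.83 CPM in WT (log2 fold change -0.45 ± 0.09, edgeR adjusted p = 0.0223), so reads of the pair may be shared. Btrc, part of the ligase that breaks down PER proteins, had 24.8 to 30.7 CPM in KO and 31.1 to 34.0 CPM in WT without overlap (log2 fold change -0.23 ± 0.06, edgeR adjusted p = 0.0628). It passed without KO 1 (-0.28, edgeR adjusted p = 0.0369). Noct (listed as Ccrn4l), which encodes nocturnin, had 27.2, 29.8, 26.3 and 27.5 CPM in KO and 25.3, 24.5, 21.5, 26.5 and 24.5 CPM in WT. WT 4 lay just above KO 3 and the other WT libraries below all KO libraries, for a log2 fold change of 0.18 ± 0.07 (edgeR adjusted p = 0.141). Rora, which encodes a receptor that activates Arntl, had a log2 fold change of 0.11 ± 0.13 (edgeR adjusted p = 0.656).

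Per kilobase of exon, to allow for gene length, the order of mean levels over the 9 libraries was Per1, Dbp, Cry1, Tef, Arntl, Csnk1e, Cry2, Clock, Per2 and Per3. Per1 averaged 16.8 ± 4.58 CPM per kb (SD, n = 9), Dbp 12.3 ± 1.58 and Cry1 11.1 ± 0.631. Dbp (10.2 to 14.3) overlapped in range with Cry1 (10.1 to 12.3) and, barely, with Per1 (14.2 to 28.9). Cry1 barely overlapped Tef (7.43 to 10.16). Csnk1e at 4.51 ± 0.514 CPM per kb (3.67 to 5.04) and Cry2 at 4.24 ± 0.361 (3.76 to 5.01) overlapped each other and Clock. Per2 at 1.85 ± 0.270 and Per3 at 0.721 ± 0.0933 CPM per kb formed the low end, and their ranges (1.38 to 2.28 and 0.552 to 0.836) overlapped neither each other nor that of Clock (3.20 to 3.90). The ratio of highest to lowest library was 2.04 for Per1, 1.65 for Per2, 1.52 for Per3 and 1.40 for Dbp, and 1.21 to 1.37 for the other 6 genes. Without WT 1 it was 1.13 for Per1, the lowest of the 10. These ratios span 9 mice at unstated times of day, and without replicate collection times no daily amplitude can be read from them.

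Whether the libraries differed in clock phase was examined by the correlation of Arntl with Dbp and the Per genes over the 9 libraries, on log2 CPM. All 45 pairs of the 10 genes were computed, each with a two-sided exact permutation p over 362880 orderings of the 9 libraries. For deviations from the KO and WT means, libraries were reordered only within KO and within WT. With libraries left out, all orderings of those kept were used. By Pearson's r, 5 pairs had a raw p under 0.05 and 3 had an adjusted p under 0.05: Arntl with Per3, Cry1 with Clock, and Dbp with Csnk1e. On deviations from the KO and WT means, 3 had a raw p under 0.05 and 0 an adjusted p under 0.05. By Spearman's rho, Arntl with Per3 and Cry1 with Clock both had an adjusted p of 0.324 and Dbp with Csnk1e 0.138, all by exact permutation.

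Arntl and Per3 ran opposite to each other. Pearson's r was -0.90 (exact permutation p = 0.00175, adjusted 0.0262) and Spearman's rho was -0.70 (exact permutation p = 0.0433, adjusted 0.324). On deviations from the group means r was -0.88 (exact permutation p = 0.00833, adjusted 0.1875), so the relation was as large with the group difference removed. KO 1, with Arntl at 49.4 and Per3 at 5.30 CPM, lay at one end, followed by WT 1 and KO 2, and KO 4 and WT 5 at the other. Leaving out 1 library at a time gave -0.97 to -0.80, the weakest without KO 1. The adjusted p was then above 0.05 in 6 of 9 cases, from 0.0636 to 0.313 (without KO 1, KO 2, KO 4, WT 1, WT 2 or WT 5). Without KO 1 and WT 1, the 2 libraries farthest from the Arntl median, r was -0.70 (exact permutation p = 0.0815), so the relation rests in part on those libraries. Without KO 1 and KO 4 it was -0.81 (exact permutation p = 0.0321). Per3 ranked 7 from the lowest r with Arntl among 9365 genes, and 20 on deviations from the group means. These genes had a mean of at least 5 CPM, with unnamed models and receptor segments left out.

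**Figure D3:**
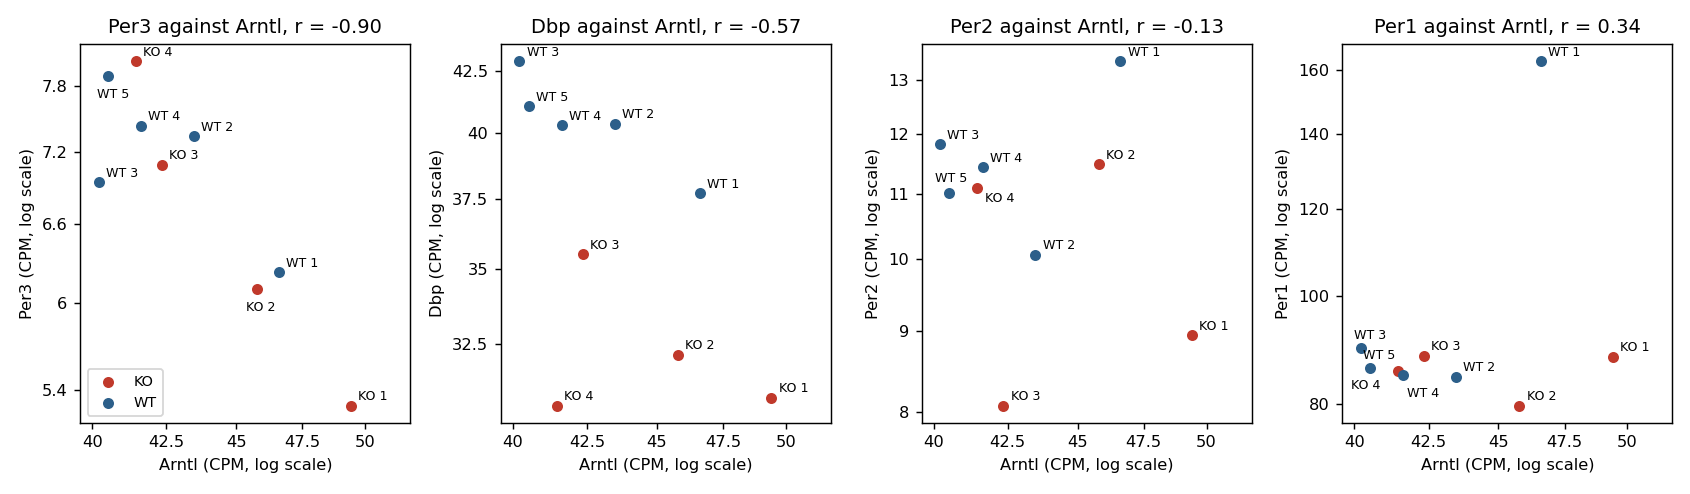
CPM of Per3, Dbp, Per2 and Per1 (y axes, log scale) against Arntl (x axis, log scale), 1 point per library, KO in red and WT in blue, with Pearson's r of log2 CPM over the 9 libraries. Per3 falls as Arntl increases (r = -0.90), Dbp splits by group with KO below WT at like Arntl levels, and the Per1 panel turns on WT 1 at 163 CPM.

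Dbp had an r below 0 with Arntl that did not pass. Its r with Arntl was -0.57 (exact permutation p = 0.111, adjusted 0.489) and its rho -0.53 (exact permutation p = 0.148, adjusted 0.485). On deviations from the group means r was -0.59 (exact permutation p = 0.153), and without the 2 farthest libraries -0.51 (exact permutation p = 0.244). Leaving out 1 library at a time gave -0.83 (without KO 4) to -0.37 (without KO 1). KO 4 went against the pattern, with the lowest Dbp (30.6 CPM) beside a low Arntl (41.5 CPM). Tef had r = -0.60 with Arntl (exact permutation p = 0.0877, adjusted 0.489).

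Per2 and Per1 showed no stable relation with Arntl. For Per2, r was -0.13 and rho -0.13 (exact permutation p = 0.748 and 0.744, adjusted 0.863 and 0.929). Its sign turned without KO 1 (0.27) and on deviations from the group means (0.11). For Per1, r was 0.34 and rho -0.05 (exact permutation p = 0.382 and 0.912, adjusted 0.633 and 0.954). Without WT 1 its r was -0.24, and without KO 1 and WT 1 it was -0.84 (exact permutation p = 0.0220, adjusted 0.330), over Per1 values that then spanned only 79.7 to 89.8 CPM.

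A difference of log2 Dbp minus log2 Arntl sums up the opposition within each library. It was -0.68, -0.51, -0.25 and -0.44 in KO 1 to KO 4, against -0.30, -0.11, 0.09, -0.05 and 0.02 in WT 1 to WT 5. KO 3 lay above WT 1 and the remaining KO libraries lay below all WT libraries. The same difference for Per3 was -3.19, -2.88, -2.56 and -2.35 in KO and -2.88, -2.55, -2.51, -2.47 and -2.34 in WT, with KO 4 near the top of the WT range, and KO 1 and, barely, KO 2 below it. Over all libraries the order by Dbp therefore differs from that by Per3. Within the groups, KO 1 then KO 2 and WT 1 then WT 2 were lowest by both, and the order of the rest differed. The Dbp difference also carries the lower Dbp of the KO group, and both differences share the Arntl value.

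**Figure D4:**
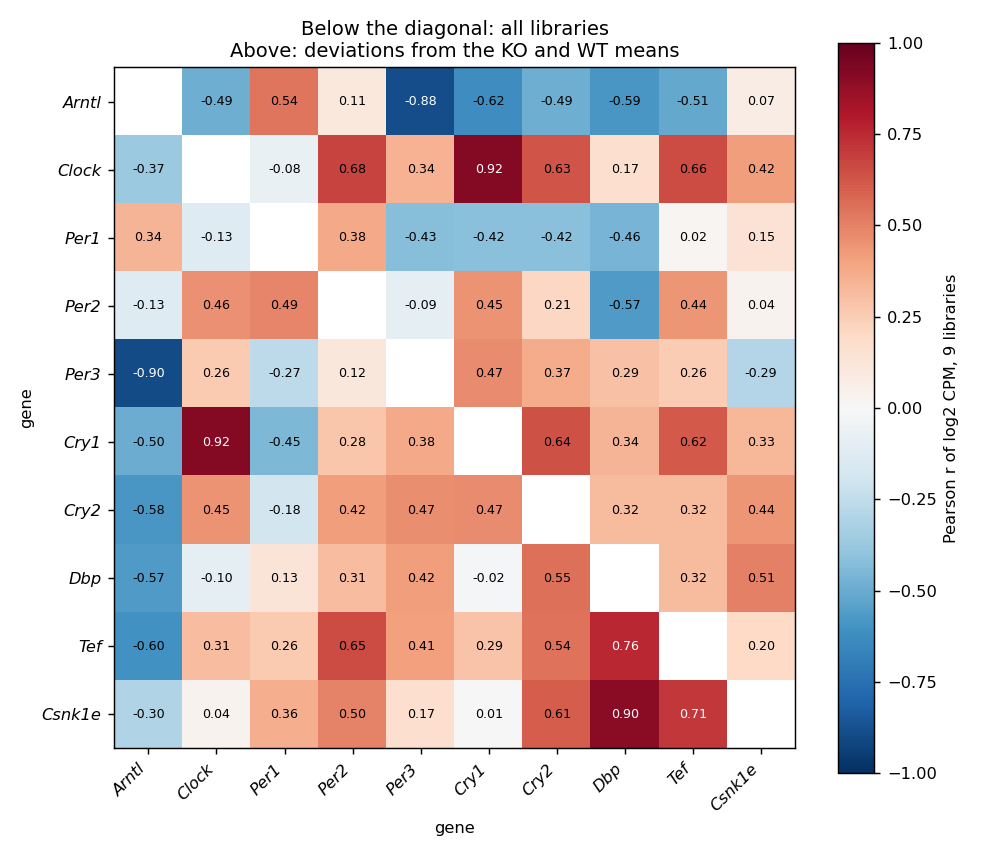
Pearson's r of log2 CPM for the 45 pairs of clock genes (colour scale from -1 to 1), over the 9 libraries below the diagonal and on deviations from the KO and WT means above it. Arntl with Per3 (-0.90 and -0.88) and Cry1 with Clock (0.92 and 0.92) hold on both sides, while Dbp with Csnk1e is 0.90 below and 0.51 above.

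Cry1 and Clock varied together, with r = 0.92 (exact permutation p = 0.000838, adjusted 0.0262) and rho = 0.78 (exact permutation p = 0.0172, adjusted 0.324). On deviations from the group means r was 0.92 (exact permutation p = 0.00799, adjusted 0.1875). KO 1 was lowest and KO 2 highest for both genes, and without these 2 libraries, which were the farthest, r was 0.73 (exact permutation p = 0.0571). KO 1 was the lowest library for 5 of the 10 genes (Per3, Cry1, Cry2, Clock and Tef) and the highest for Arntl, and WT 3 was the highest for Dbp, Tef and Csnk1e and the lowest for Arntl. For Dbp and Csnk1e the KO and WT values form separate groups, so a value over all libraries carries the group difference, and on deviations from the group means r was 0.51 (exact permutation p = 0.271).

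The genes whose log2 CPM followed Arntl most closely over the 9 libraries were Ryr2 (r = 0.95), Itpk1, Tubgcp5, Dgat1 and Cox6c (0.88), and the most opposed were Arsa (-0.94), Gprc5b, Dhx36, Appl1 and Hadhb (-0.90). Among the 5 most like Dbp were Ntn4 (0.98), Sec31b, Sfmbt2 and Zer1 (0.97), and the most opposed Vcpkmt (-0.97), Pnp, Phf21b, Umad1 and Coa3 (-0.96). They were picked from 9365 genes by this value, so it is a description. Since KO and WT do not overlap for Dbp, genes picked for likeness to it follow the groups as well. Of other clock genes, the Arntl activator gene Rora and the D-box repressor gene Nfil3 had r of 0.73 and 0.70 with Arntl. Fbxw11 had a higher r of 0.84. KO 1 and WT 1 were the highest libraries for Arntl, at 49.4 and 46.6 CPM. They were also highest for Rora (99.97 and 91.3 CPM), Nfil3 (21.1 and 29.1 CPM) and Fbxw11 (110 and 115 CPM). The part of these libraries in those r values was not tested. For Nr1d1 and Nr1d2 the r with Arntl was 0.07 and -0.24, and 0.55 and 0.30 on deviations from the group means.

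WT 1 differed from the other libraries in Per1 and in the summed RNA of genes that cells switch on within minutes of a stimulus. The 17 immediate early genes summed to 1771 to 2004 CPM in KO and 1623 to 2183 CPM in WT other than WT 1, which had 7977 CPM. Fos had 33.9, 40.6, 29.4 and 33.7 CPM in KO, against 1078, 71.8, 28.9, 25.9 and 20.9 CPM in WT. Per1 correlated with Fos, Jun and Nr4a1 at r = 0.93, 0.96 and 0.96 over the 9 libraries and at -0.36, -0.38 and -0.19 without WT 1, so those values rest on that library. Of the 13 immediate early genes tested, 1 passed, against 3.28% of all genes. This was Egr2, higher in KO (log2 fold change 0.29 ± 0.07, edgeR adjusted p = 0.0368). Egr2 was lowest in WT 1, at 47.6 CPM against 51.4 to 70.0 CPM in the other libraries. With Per1, Egr2 and Egr3 had r = -0.56 and -0.30 over the 9 libraries and 0.21 and 0.23 without WT 1. The clock repressor genes Bhlhe40 and Ciart were highest in WT 1 too. Bhlhe40 had 83.7, 46.9, 52.2 and 66.0 CPM in KO and 192, 75.9, 50.8, 48.9 and 50.8 CPM in WT. Ciart, which was faint at 28 to 109 counts, had 1.60 to 2.05 CPM in KO and 6.59, 2.36, 2.05, 2.50 and 1.75 CPM in WT. The part of this library's state in the Per1, Bhlhe40 and Ciart values was not tested.

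Glucocorticoids, whose level in blood has its own daily rhythm, induce Per1 and a set of further genes. The 6 genes of that set that were followed summed to 332 to 383 CPM in KO and 372 to 590 CPM in WT. Of the 590 CPM in WT 5, Tsc22d3 had 230 and Ddit4 243. The log2 fold change was below 0 for 3 of the 6 genes and above 0 for 3, with a median of -0.02. Over all genes 48.5% were below 0. By the edgeR test 0 of the 6 passed, against 3.28% of all genes called. Tsc22d3 had an unadjusted p under 0.05 and passed with DESeq2 and with limma-voom, each of which called 1 of the 6. Over all genes, DESeq2 called 908 of 13078 and limma-voom 346 of 12738. Tsc22d3, a standard target, had 79.1, 113, 99.6 and 74.6 CPM in KO, against 190, 116, 145, 139 and 230 CPM in WT. Its groups did not overlap, WT 2 lying just above KO 2. Over all genes 9.07% did not overlap, 4.92% with KO lower. The log2 fold change of Tsc22d3 was -0.84 ± 0.23 (edgeR adjusted p = 0.0981, DESeq2 0.0124, limma-voom 0.0477). The other 5 genes overlapped between KO and WT, with Fkbp5 at 0.14 ± 0.08 (edgeR adjusted p = 0.323) and Ddit4 at -0.14 ± 0.30 (edgeR adjusted p = 0.822). What part glucocorticoid response has in the Dbp, Csnk1e and Nr1d2 differences was not tested.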

How the data were processed

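Per the labels' protocols, total RNA was made into libraries by a TruSeq kit that keeps strand. Raw counts per gene symbol were deposited by the authors, 1 column for each of 9 libraries. STAR 2.7, DESeq2 and mm10 appear in the submitters' processing notes. How reads were counted, with which annotation and strand, is not given in the sources used. The main test was edgeR's (version 4.0.16, R 4.3.3; TMM scaling, default expression filter, robust quasi-likelihood fit), with Benjamini-Hochberg adjustment over 12738 genes. CPM used the counts of tested genes and the TMM factor, and log2 values a prior count of 2. Standard errors were derived from the fold change and the F statistic. Gene positions, exon lengths and overlaps came from the GENCODE annotation of GRCm38, and promoter windows from RefSeq. Spreads measure mice, 1 library each, and floors of 3 counts cover counting error only. Closest libraries of a group had a chi-square per degree of freedom of 2.60, so none were duplicates. The test was checked on simulated counts, with 50 genes changed at each size. It recovered 18% of 1.2-fold, 72% of 1.5-fold, 76% of 2-fold and 98% of 4-fold changes. Changes near 1.2-fold were thus mostly missed. Named genes were the 10 members, the called or 4 lowest-p other clock genes, and the 5 genes most and least like Arntl and Dbp. Unnamed models and receptor segments were left out of the last of these. Others named (Csnk1d, Hlf, Rora, Nfil3, Fbxw11, Bhlhe40, Ciart, Egr2, Egr3) were chosen after their values were seen. Some genes are not reported here by name. Members and lists were chosen with earlier results of these data known. Alternatives were other scalings, filters and prior counts, DESeq2 1.42.0, limma-voom (limma 3.58.1), replicate blocks and leaving out libraries.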

Additional observations from a re-analysis of the deposited data

Results flagged for a closer look

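In 6 of 60 groups of libraries checked, over 30 clock genes, 1 library stood far from the rest of its group, where chance gives about 1 in 20, or 3. WT 1 was the high library for 4 genes, with Per1 at 163 CPM (next 89.8), Bhlhe40 at 192 CPM (next 75.9), Ciart at 6.59 CPM (next 2.50) and Rora at 91.3 CPM (next 74.1). Tef was low in KO 1 at 58.5 CPM (next 65.8). Timeless was low in KO 2 at 37.7 CPM (next 47.8).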

How the results depend on the processing

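The count of 2 clock genes called, Dbp and Csnk1e, was the same under 3 other scalings, DESeq2, limma-voom, no filter and a filter of 5 CPM. A replicate block by title number gave 0, and by bracketed number 2 (Dbp and Tef). Same-numbered KO and WT libraries had deviations correlated at -0.07 to 0.10 by title and -0.26 to 0.10 by bracket. Not every library correlated best with its own number. These values do not settle whether the numbers mark pairs. Leaving out 1 library gave 0 to 3 (0 without KO 4), leaving out KO 1 and KO 4 gave 0, and leaving out these and WT 1 gave 1. Other clock genes called were 1, but 2 with DESeq2 (Btrc added), 0 with the title replicate block, and 1 to 2 with 1 library left out. Arntl against Per1 spanned -0.24 to 0.54 with 1 library left out and was -0.84 without the 2 farthest libraries. Arntl against Per2 spanned -0.43 to 0.27, and was 0.29 without KO 1 and KO 4 and 0.11 on deviations. Arntl against Per3 spanned -0.97 to -0.80, with an adjusted p above 0.05 in 6 of 9 such cases, and was -0.81 without KO 1 and KO 4, -0.88 on deviations and -0.70 without the 2 farthest, these also with an adjusted p above 0.05. Arntl against Dbp spanned -0.83 to -0.37 and kept its sign in every alternative run. With 1 library left out the log2 fold change of Cry1 spanned -0.015 to 0.077 and that of Clock -0.013 to 0.081, both below 0 without KO 2. The cause of these shifts was not tested. Over the whole table, 908 genes were called with DESeq2 and 26 with the title replicate block. Dropping WT 2 gave 697, WT 3 gave 97, WT 4 gave 134 and WT 5 gave 117. Dropping KO 3 gave 182, KO 4 gave 103, KO 1 and KO 4 together 118, and these with WT 1 gave 250. Counting error limits the faint genes, and the number of libraries limits every correlation.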
